A study of Mus musculus with 6 samples.

Results

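Transcripts of 9 genes for leukocyte adhesion receptors were followed in mouse splenic B lymphocytes: the integrin chains Itga4, Itgb1, Itgb7, Itgal, Itgam, Itgax and Itgb2, the hyaluronan receptor Cd44, and Icam1, which encodes a ligand of the beta 2 integrins. They were taken by gene symbol from a table of 16511 genes, all 9 were found, and all 9 were among the 12234 genes that passed the filter on low counts. The table holds 6 RNA sequencing libraries, 3 labelled GPR40-WT and 3 labelled GPR40-KO, and the design text calls the second genotype GPR40-BKO. GPR40 is the free fatty acid receptor encoded by Ffar1. The cells were enriched from spleen with a magnetic kit that holds back other cells and lets B cells pass unlabelled. Strain, age, the driver of any deletion and whether a library is 1 animal or a pool were not given in the sources used here.

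Integrins are pairs of an alpha and a beta chain that stay bent and weakly binding on resting leukocytes and open when signals from chemokine or antigen receptors reach their cytoplasmic tails. On B cells the alpha 4 chain pairs with beta 1 to bind VCAM-1 and fibronectin, or with beta 7 to bind MAdCAM-1 on the vessels of gut tissues, and the alpha L chain pairs with beta 2 as LFA-1 to bind ICAM-1. Alpha M and alpha X also pair with beta 2 and are the CD11b and CD11c antigens best known from neutrophils, macrophages and dendritic cells, and also carried by some B cell subsets. CD44 binds hyaluronan in the extracellular matrix and is carried at higher levels by activated and myeloid cells than by resting B cells. In spleen, LFA-1 and alpha 4 beta 1 are known to hold marginal zone B cells in place.

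The targeted gene did not follow the labels. In the libraries labelled KO, replicates 1, 2 and 3, Ffar1 had counts of 273, 392 and 304, whereas each library labelled WT was at 0. Directions are therefore those of the label and not of a genotype checked in these data. Depth was even, at 14907080 to 15461425 estimated counts per library, and no 2 libraries of a group agreed within sampling noise (chi-square per degree of freedom from 12.0 to 47.9). Markers of other cells differed between libraries. The summed level of 14 neutrophil markers, in counts scaled to library size (CPM), was 6520 in the library labelled WT replicate 1 and 1940 and 792 in the other 2 labelled WT, against 136 to 287 in those labelled KO. The library labelled WT replicate 3 had the highest summed haemoglobin and other erythroid markers (8180 CPM, against 329 to 1540 elsewhere), and the library labelled KO replicate 3 had the highest sum of endothelial and stromal markers (652 CPM, against 175 to 275). The summed level of 10 B cell markers lay between 5530 and 8020 CPM in the libraries labelled WT and between 11100 and 12200 in those labelled KO.

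Of the 9 adhesion receptor genes, Itgax and Cd44 fell in the libraries labelled KO, and 7 did not pass the test at an adjusted p of 0.05. Over all tested genes, 4.81% were called lower and 4.55% higher in the libraries labelled KO by edgeR's quasi-likelihood test, 9.37% in all. None of the 9 was called higher by that test; Itgb7 was higher at an unadjusted p under 0.05. DESeq2 called 1 of the 9 higher (Itgb7) and 5 lower (Itgb1, Itgb2, Itgam, Itgax and Cd44), beside 6.99% and 11.4% of all tested genes. The median log2 fold change (labelled KO minus labelled WT) of the 9 genes was -0.74, beside 0.01 over all tested genes. The 3 libraries labelled KO lay outside the range of the 3 labelled WT for 6 of the 9 genes, below it for Itgb1, Itgb2, Itgam, Itgax and Cd44 and above it for Itgb7, where 33.4% of all tested genes had groups that did not overlap. Blocking on the replicate number called 1 of the 9 higher (Itgb7), as it did 7.96% of all tested genes, and 6 lower (Itgb1, Itgb2, Itgam, Itgax, Cd44 and Icam1), as it did 12.8%, which makes 20.7% in all. Bulk libraries cannot tell fewer cells of a type from less RNA per cell, which holds for every level below.

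**Figure D1:**
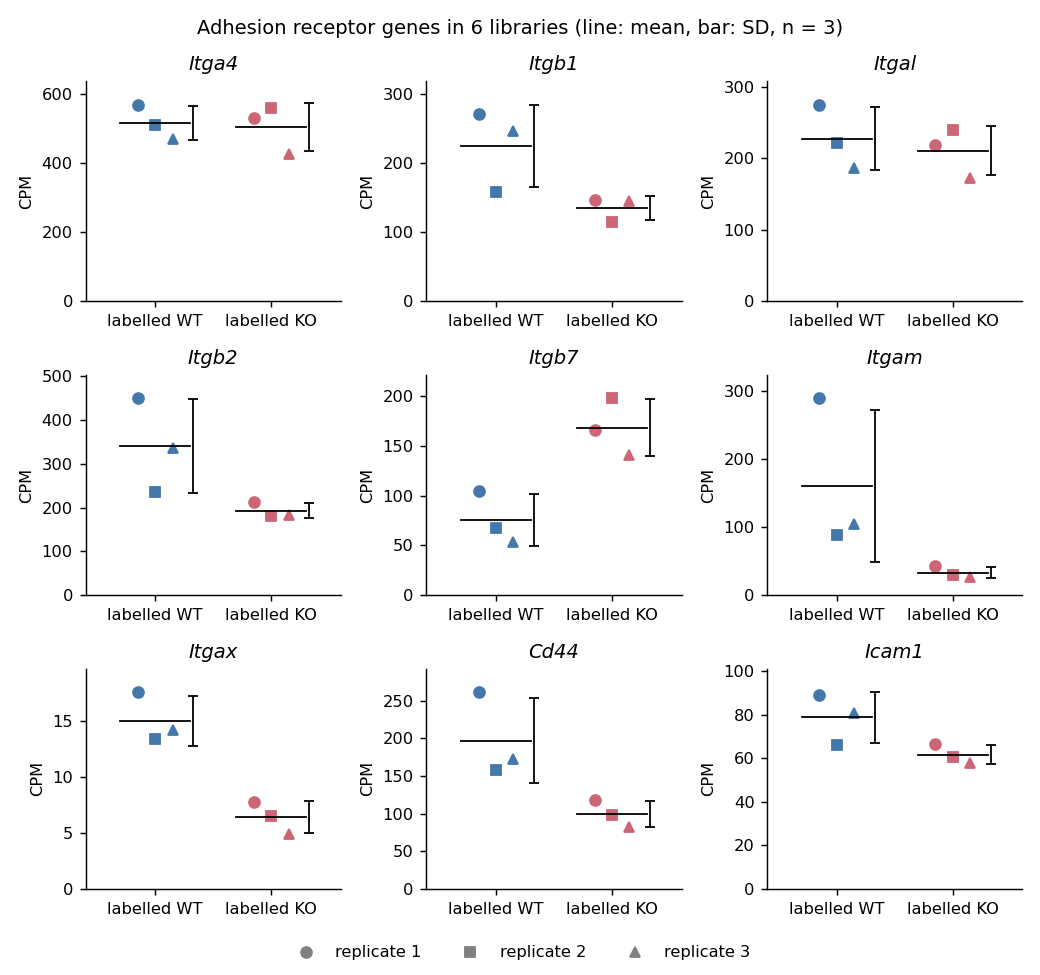
Level of each of the 9 adhesion receptor genes in CPM (vertical axes, from 0) in 3 libraries labelled WT and 3 labelled KO, with a point per library shaped by replicate number, a line at the mean and a bar of 1 SD (n = 3). Itgb7 is the gene whose points labelled KO all lie above those labelled WT, the points of Itga4, Itgal and Icam1 overlap, and Itgam has 1 library labelled WT at 289.6 CPM beside others at 89.0 and 104.

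Of the alpha 4 integrins, the shared alpha chain overlapped between groups, while the libraries labelled KO lay above those labelled WT for one beta chain and below them for the other. Itga4 (chromosome 2, 79255426 to 79333114, GRCm38) was at 568, 509 and 469 CPM in the libraries labelled WT replicates 1, 2 and 3 and at 529, 558 and 425 CPM in those labelled KO. Both groups spanned nearly the same range. Its log2 fold change was -0.03 ± 0.12 (SE, edgeR adjusted p = 0.896), and the sign turned without replicate 1 labelled WT (0.05) or replicate 3 labelled KO (0.08).

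Itgb7, the beta chain of the gut-homing pair alpha 4 beta 7, was at 105, 67.9 and 53.4 CPM in the libraries labelled WT replicates 1, 2 and 3 and at 166, 198 and 141 CPM in those labelled KO. Each library labelled KO was above each library labelled WT, and the library labelled WT replicate 1, with the highest neutrophil marker sum, was the nearest to them. The means were 75.3 ± 26.3 and 168 ± 28.5 CPM (SD, n = 3), a log2 fold change of 1.16 ± 0.27 that did not pass (edgeR adjusted p = 0.0539). It passed with the replicate block (edgeR adjusted p = 0.0114) and without the library labelled WT replicate 1 (log2 fold change 1.47, edgeR adjusted p = 0.00611). Itgb7 lies on chromosome 15 (102215994 to 102233405, minus strand).

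Itgb1, the beta chain that serves most matrix receptors, was at 271, 158 and 247 CPM in the libraries labelled WT and at 147, 115 and 145 CPM in those labelled KO, replicates 1 to 3 in turn. The library labelled WT replicate 2 was only slightly above the highest library labelled KO, and the other 2 labelled WT stood well above. The means were 225 ± 59.7 and 135 ± 17.7 CPM (SD, n = 3), and the log2 fold change of -0.74 ± 0.21 did not pass (edgeR adjusted p = 0.0812) except with the replicate block (edgeR adjusted p = 0.00111) and without the library labelled WT replicate 2 (-0.92, edgeR adjusted p = 0.00292), among the edgeR fits. The libraries labelled WT replicates 1 and 3, high in Itgb1, also held the highest sums of 14 monocyte and macrophage markers, 4990 and 5570 CPM against 2270 in replicate 2 and 982 to 1800 in the libraries labelled KO. The part of those cells in the Itgb1 difference was not tested.

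Among the beta 2 integrins the alpha chain of LFA-1 overlapped between groups and the 2 alpha chains best known from myeloid cells were lower in every library labelled KO. Itgal was at 275, 221 and 187 CPM in the libraries labelled WT replicates 1, 2 and 3 and at 219, 241 and 173 CPM in those labelled KO. The groups overlapped, and in both of them replicate 3 was the lowest. The log2 fold change was -0.11 ± 0.17 (edgeR adjusted p = 0.716) and turned to 0.05 without the library labelled WT replicate 1 and to 0.02 without that labelled KO replicate 3.

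Itgb2, the beta chain common to this family, was at 449, 236 and 336 CPM in the libraries labelled WT and at 212, 182 and 183 CPM in those labelled KO. All 3 libraries labelled KO were below the lowest labelled WT and close to each other, while those labelled WT were widely spread. The log2 fold change of -0.83 ± 0.23 did not pass (edgeR adjusted p = 0.0729), but did with the replicate block (edgeR adjusted p = 0.00737) and without the library labelled WT replicate 2 (-1.02, edgeR adjusted p = 0.00359).

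Itgam, which encodes CD11b, was at 289.6, 89.0 and 104 CPM in the libraries labelled WT replicates 1, 2 and 3 and at 42.6, 29.2 and 27.0 CPM in those labelled KO. The groups did not overlap, and the library labelled WT replicate 1 stood far above the other 2. The means were 161 ± 112 and 32.9 ± 8.44 CPM (SD, n = 3), the largest fold difference of the 9 genes and the one with the largest standard error (log2 fold change -2.29 ± 0.56, edgeR adjusted p = 0.0693). With that library left out the log2 fold change was smaller and passed (-1.55, edgeR adjusted p = 0.00646). With the replicate block it also passed (edgeR adjusted p = 0.0104).

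Itgax, which encodes CD11c, fell from 15 ± 2.23 to 6.39 ± 1.43 CPM (SD, n = 3). Its levels were 17.5, 13.3 and 14.1 CPM in the libraries labelled WT and 7.75, 6.52 and 4.89 CPM in those labelled KO, which rested on 271, 203 and 214 counts against 115, 98 and 73. Each library labelled KO was well below each labelled WT, and unlike Itgam no library stood apart. The log2 fold change was -1.23 ± 0.23 (edgeR adjusted p = 0.0171). Leaving out replicate 2 labelled KO ended the call (-1.25, edgeR adjusted p = 0.0782), as did leaving out replicate 1 labelled WT and replicate 3 labelled KO together (-0.95, edgeR adjusted p = 0.0749).

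Itgal, Itgam and Itgax lie on the plus strand of chromosome 7 in the order named, Itgal at 127296139 to 127335137, Itgam at 128062640 to 128118491 and Itgax at 128129526 to 128150657 (GRCm38). Itgam and Itgax are next to each other, 11034 bp apart, and Itgad, another beta 2 partner, follows after 23275 bp. Itgad was at 41.2 ± 27.0 CPM in the libraries labelled WT and 25.2 ± 12.6 CPM in those labelled KO (SD, n = 3). The groups overlapped (log2 fold change -0.71 ± 0.64, edgeR adjusted p = 0.530), while the fit with the replicate block, which compares libraries of the same number, called it (-0.66 ± 0.18, edgeR adjusted p = 0.0372). Its highest value, 71.5 CPM, was in the library labelled WT replicate 3 and not in replicate 1, where Itgam was highest. Sephs2 and Zfp768, which flank Itgal on either side, had log2 fold changes of -0.43 ± 0.14 and -0.67 ± 0.18 and did not pass, Sephs2 with an edgeR adjusted p of 0.0873 and Zfp768 only just above the threshold. Both passed with the replicate block (edgeR adjusted p = 0.0256 and 0.0331) and with DESeq2 (adjusted p = 0.0378 and 0.0216). Zfp768 also passed with RLE size factors, library totals or a minimum mean of 1 CPM (edgeR adjusted p = 0.0477, 0.0472 and 0.0495) and with limma on either log2 TPM scale (adjusted p = 0.0403 and 0.0412). This cluster is on the same chromosome as Ffar1, at a distance of 96435 kb or more for the 3 genes.

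The RefSeq promoter window of 250 bases is shown for Itgam and Itgax, neighbours that were both lower in every library labelled KO. It is also shown for Cd44, which fell with Itgax, and for Itgb7, which stood on the other side. The Itgam window ends at the base before the stated gene start. Those of Itgax and Cd44 run past the stated start into the gene. The Itgb7 window (102231936 to 102232185) lies wholly within the stated gene span (102215994 to 102233405). Sequences are from RefSeq on GRCm38.p6, read 5′ to 3′ on the gene's strand. RefSeq promoter entries matched 7 of the 9 genes, all but Itgal and Itgb2. Capitals mark GAGGAA, the core recognised by PU.1, a transcription factor of myeloid and B cells, searched on both strands (TTCCTC is the same letters on the other strand).
Itgam promoter, chr7:128062390-128062639, plus strand: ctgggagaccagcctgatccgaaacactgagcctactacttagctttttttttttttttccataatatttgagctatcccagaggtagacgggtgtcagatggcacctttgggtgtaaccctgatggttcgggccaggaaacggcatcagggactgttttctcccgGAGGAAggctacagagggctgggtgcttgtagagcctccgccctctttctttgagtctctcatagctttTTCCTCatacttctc
Itgax promoter, chr7:128129300-128129549, plus strand: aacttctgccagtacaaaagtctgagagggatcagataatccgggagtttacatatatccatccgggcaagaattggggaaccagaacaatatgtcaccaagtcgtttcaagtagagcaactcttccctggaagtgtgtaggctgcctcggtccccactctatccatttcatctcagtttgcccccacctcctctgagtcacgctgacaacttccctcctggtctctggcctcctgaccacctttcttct
Cd44 promoter, chr2:102901666-102901915, minus strand: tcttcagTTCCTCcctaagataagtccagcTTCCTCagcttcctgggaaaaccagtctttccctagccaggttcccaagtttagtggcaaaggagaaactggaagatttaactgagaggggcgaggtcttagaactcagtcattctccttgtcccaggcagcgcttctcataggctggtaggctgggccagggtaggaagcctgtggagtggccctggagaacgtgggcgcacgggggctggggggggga
Itgb7 promoter, chr15:102231936-102232185, minus strand: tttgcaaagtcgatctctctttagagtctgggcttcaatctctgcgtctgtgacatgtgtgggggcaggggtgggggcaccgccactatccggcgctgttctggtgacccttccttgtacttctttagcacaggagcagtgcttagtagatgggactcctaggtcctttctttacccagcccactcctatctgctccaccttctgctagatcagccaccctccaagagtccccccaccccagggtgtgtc
The Itgam window held GAGGAA at bases 84 to 79 and, on the other strand, at bases 15 to 10 before the start. In the Cd44 window it stood at bases 243 to 238 and 220 to 215, counted back from the window's end, both on the other strand. Neither the Itgax nor the Itgb7 window held it, and that of Itgb7 does not cover the bases before the stated gene start. Among the other windows searched, that of Itgb1 held it at bases 9 to 4 before the start, and those of Itga4 and Icam1 did not. Of 32851 RefSeq promoter windows of the same length, 23.3% held at least 1 copy, so its presence is common and describes these letters only.

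CD44 transcripts fell in the libraries labelled KO. Cd44 (chromosome 2, 102811141 to 102901669, minus strand) was at 261, 158 and 172 CPM in the libraries labelled WT replicates 1, 2 and 3 and at 118, 98.1 and 82.3 CPM in those labelled KO. All 3 libraries labelled KO were below the lowest labelled WT, and the library labelled WT replicate 1 was again the highest. The means were 197 ± 56.2 and 99.4 ± 17.7 CPM (SD, n = 3), a log2 fold change of -0.99 ± 0.23 that was just under the threshold (edgeR adjusted p = 0.0481). With that library left out the log2 fold change was -0.73 and passed (edgeR adjusted p = 0.0229). The call was lost on leaving out replicate 3 labelled WT (edgeR adjusted p = 0.0830) or replicate 1, 2 or 3 labelled KO (edgeR adjusted p = 0.0782, 0.159 and 0.102), and with no filter on low counts (edgeR adjusted p = 0.0627).

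Nearly all Cd44 RNA was assigned to the short form that lacks the variable exons. The transcript with 9 exons and 365 coded amino acids held 93.4% to 96.6% of the Cd44 level in TPM, which is scaled to transcript length, in each library. Its TPM were 101, 60.3 and 64.8 in the libraries labelled WT and 45.7, 38.9 and 29.4 in those labelled KO. A form with 11 exons made up 0% to 5.29% and was listed at 0 in the library labelled KO replicate 1. The 12-exon form was listed above 0 only in that library, with 37 counts. The share of the 9-exon form was 94.9% ± 1.35 in the libraries labelled WT and 95.5% ± 1.65 in those labelled KO (SD, n = 3), a difference smaller than the spread between replicates.

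Icam1, whose protein binds LFA-1 and alpha M beta 2, was at 89.1, 66.2 and 81.0 CPM in the libraries labelled WT and at 66.4, 60.8 and 57.8 CPM in those labelled KO. The groups overlapped by a small margin, the lowest library labelled WT lying just under the highest labelled KO. The log2 fold change was -0.35 ± 0.12 (edgeR adjusted p = 0.102). It passed with the replicate block (edgeR adjusted p = 0.0387) and without the library labelled WT replicate 2 (-0.45, edgeR adjusted p = 0.0225). Icam1 is a textbook target of NF-kB, and its promoter window (RefSeq, GRCm38.p6) is shown because it holds an NF-kB motif, GGAAATTCC, in capitals, at bases 153 to 145 before the start.
Icam1 promoter, chr9:21015690-21015939, plus strand: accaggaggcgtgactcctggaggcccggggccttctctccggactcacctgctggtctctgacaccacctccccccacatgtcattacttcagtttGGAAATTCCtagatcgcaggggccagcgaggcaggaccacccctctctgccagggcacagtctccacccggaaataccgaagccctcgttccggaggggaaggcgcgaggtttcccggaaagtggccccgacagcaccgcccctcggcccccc
That motif, searched on both strands, was in 0.286% of the 32851 windows. As the Icam1 window is shown for holding the motif, its presence describes these letters only.

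**Figure D2:**
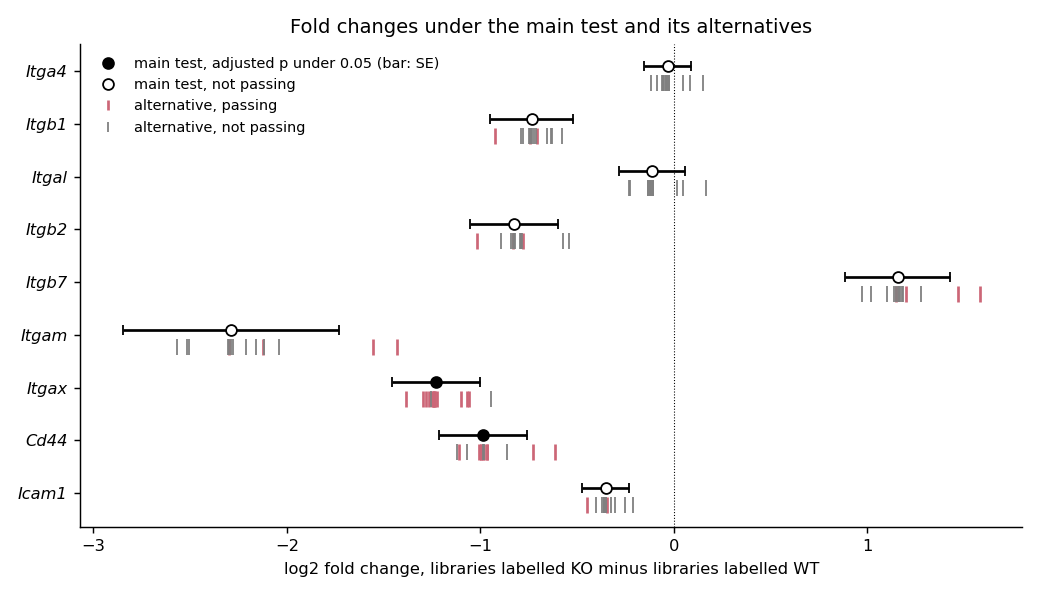
Log2 fold change (horizontal axis, libraries labelled KO minus libraries labelled WT) of the 9 genes under the main edgeR test, with a bar of 1 SE, and under 15 alternatives (ticks below each point). Itgax and Cd44 are the filled points that passed, Itgb1, Itgb2, Itgb7, Itgam and Icam1 have red ticks where an alternative passed, and the ticks of Itga4 and Itgal fall on both sides of 0.

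Ratios of chain levels within a library do not depend on its scaling, and 6 were compared. The Itgb7/Itgb1 ratio of TPM was 0.632, 0.705 and 0.353 in the libraries labelled WT and 1.86, 2.82 and 1.59 in those labelled KO. Of this pair of genes, Itgb1 was thus the higher in TPM in each library labelled WT and Itgb7 in each labelled KO. On the log2 scale the ratio differed by 1.91 (mean -0.89 ± 0.54 against 1.02 ± 0.43, SD, n = 3), with an exact two-sided permutation p of 0.1, the smallest that 3 against 3 allows, and 0.12 adjusted over the 6 ratios.

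The Itga4/Itgb7 ratio was 1.36, 1.88 and 2.21 in the libraries labelled WT and 0.800, 0.707 and 0.757 in those labelled KO, without overlap (log2 difference -1.24, exact permutation p = 0.1, adjusted 0.12). For Itga4/Itgb1 the groups overlapped, with 0.861, 1.33 and 0.780 against 1.48, 1.99 and 1.21 (log2 difference 0.67, exact permutation p = 0.2, adjusted 0.2).

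Itgal/Itgb2 was 0.322, 0.490 and 0.293 in the libraries labelled WT and 0.552, 0.702 and 0.499 in those labelled KO, a gap that was narrow between 0.490 and 0.499. Itgam/Itgb2 was 0.379, 0.221 and 0.182 against 0.118, 0.0939 and 0.0866. Itgax/Itgb2, the lowest of the 6, was 0.0268, 0.0407 and 0.0303 against 0.0251, 0.0245 and 0.0184. These 3 ratios did not overlap between groups, had log2 differences of 0.69, -1.33 and -0.52, and each had an exact permutation p of 0.1 (adjusted 0.12). Of the summed TPM of the 3 alpha chains, Itgal made up 44.2%, 65.2% and 57.9% in the libraries labelled WT and 79.4%, 85.6% and 82.6% in those labelled KO. Itgam made up 52.1%, 29.4% and 36.1% against 17.0%, 11.4% and 14.4%. Of the 3 genes, Itgal was thus the highest in TPM in 5 of the 6 libraries, and Itgam in the library labelled WT replicate 1.

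**Figure D3:**
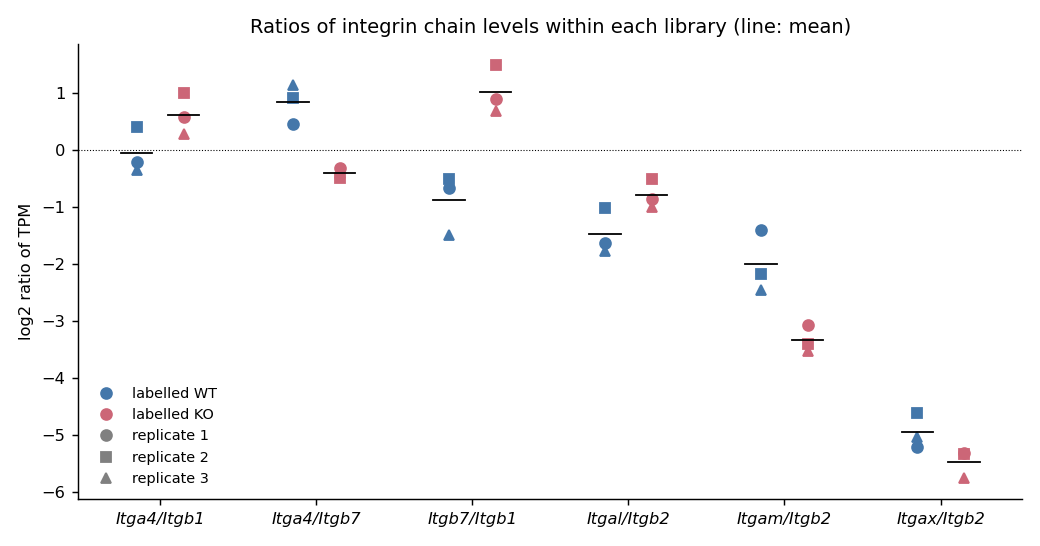
Log2 ratio of TPM of 2 integrin chains within each library (vertical axis) for 6 ratios, with a point per library shaped by replicate number and a line at the mean of each group of 3. The points of the 2 groups are apart for every ratio but Itga4/Itgb1, and Itgb7/Itgb1 crosses 0, from below in the libraries labelled WT to above in those labelled KO.

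In TPM, Itgb2 had the highest mean in both groups, at 220.0 ± 68.0 in the libraries labelled WT and 123 ± 12.8 in those labelled KO (SD, n = 3). Itgax was the lowest in both, at 6.87 ± 0.82 and 2.81 ± 0.70. Between these ends, the order in the libraries labelled WT was Itgb1, Itga4, Cd44, Itgal, Itgam, Icam1 and Itgb7, from 96.1 ± 24.6 down to 52.8 ± 18.7 TPM. Neighbours in that stretch had overlapping ranges, so their order is not resolved. In the libraries labelled KO Itgb7 came second at 117 ± 23.7 TPM, its range overlapping that of Itgb2, followed by Itga4, Itgal and Itgb1, each overlapping the next. Icam1 and Cd44 came below Itgb1 without overlap, at 44.5 ± 4.30 and 39.7 ± 8.03 TPM, and Itgam, at 12.4 ± 3.37 TPM, was lower again.

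At the transcript level none of 22 tested transcripts of the 9 genes, of 27 listed, was called by edgeR, 8 had an unadjusted p under 0.05, and DESeq2 called 2 higher and 6 lower. Over all tested transcripts edgeR called 0.154% and DESeq2 8.45%. The estimated counts of transcripts are split among forms that share exons, and 54.7% of them were not whole numbers. Itgb1 and Icam1 had 1 listed transcript each, and a main form held 98.1% to 98.9% of Itga4, 93.6% to 98.5% of Itgb7 and 80.2% to 89.6% of Itgb2 in each library. Itgam was divided between a form of 1154 amino acids (30.8% to 51.3%) and one of 1153 (48.7% to 69.2%), and the shares overlapped between groups. Both Itgam forms were lower in each library labelled KO, at 37.4, 12.9 and 16.3 TPM against 8.30, 5.20 and 2.99 for the first and 72.8, 21.5 and 22.5 against 7.87, 6.05 and 6.72 for the second.

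For each of the 9 genes, the 3 other genes with the most similar profile were found by Pearson r of log2(CPM + 0.5) over the 6 libraries, as a description, since the libraries fall into 2 groups and all tested genes were ranked. Itgam was closest to Csf3r, the receptor for the granulocyte growth factor G-CSF (r = 0.999), followed by Gca and Pygl. Gca was also among the 3 closest to Cd44, after Acpp (r = 0.997) and before Rbpj, the transcription factor of the Notch pathway. Itgb7 was closest to Alg2, Ncoa1 and Ptprc, the last encoding the leukocyte common antigen CD45 (r = 0.995, 0.994 and 0.994). Itgb2 was closest to Pfkfb3, Nr4a3 and Sephs2, and Itgb1 to Fndc3b, Mitf and Por (r from 0.997 to 0.999 over these 6). The closest to Itgax were Tmem170b, Insl6 and Alpl, and those to Icam1 were Lpcat2, Mvp and Fgr, a Src family kinase of myeloid and B cells (r from 0.996 to 0.999). Itga4 and Itgal had lower values, with Tent5a, Slc35e1 and Rhoa at 0.985 to 0.993 and Las1l, Kctd20 and Tcf20 at 0.976 to 0.989.

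Other integrin chains were mostly lower in the libraries labelled KO in value, with a median log2 fold change of -0.90 over 17 tested of 20 listed, of which 2 fell and 15 did not pass. Itgb3, the beta chain of the vitronectin receptor, was at 43.4, 54.2 and 62.0 CPM in the libraries labelled WT and 16.0, 15.4 and 23.2 CPM in those labelled KO. It fell by 1.55 on the log2 scale (edgeR adjusted p = 0.00403), a gap between groups wider than that within them. Itga5, the alpha chain of the fibronectin receptor, was at 42.3, 17.7 and 47.2 CPM against 11.7, 8.59 and 8.44 (log2 fold change -1.90 ± 0.39, edgeR adjusted p = 0.0361). Itga5 was high in the same 2 libraries labelled WT as Itgb1, its partner. Of the 6 fits that left out 1 library, Itgb3 passed in all and Itga5 in 1, that without replicate 2 labelled WT (edgeR adjusted p up to 0.149 in the rest), and with no filter Itga5 was not called (edgeR adjusted p = 0.0528). The alpha chains Itga1 and Itga9 had log2 fold changes of -1.13 ± 0.33 and -1.41 ± 0.37 and did not pass (edgeR adjusted p = 0.0659 and 0.0628). Both passed with the replicate block (edgeR adjusted p = 0.0302 and 0.00215) and with DESeq2 (adjusted p = 0.0161 and 0.00051). The block called 9 of the 17 lower, as it did 12.8% of all tested genes. For this list and those below, the main test called 4.81% of all tested genes lower and 4.55% higher. The block called 7.96% of them higher.

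Of 18 tested genes that control the switch of integrins to their open form, 3 rose and 15 did not pass, with a median of 0.14. Sipa1, which turns off the GTPase Rap1, rose from 453 ± 42.3 to 725 ± 48.2 CPM (SD, n = 3, log2 fold change 0.68 ± 0.10, edgeR adjusted p = 0.00626). Rasgrp2, a calcium-regulated exchange factor that turns Rap1 on, rose by 0.50 ± 0.13 (edgeR adjusted p = 0.0492) and Cyth1, an exchange factor that binds the beta 2 tail, by 0.45 ± 0.12 (edgeR adjusted p = 0.0493). The last 2 calls were close to the threshold and were lost with RLE size factors, library totals, no filter or a minimum mean of 1 CPM (edgeR adjusted p from 0.0531 to 0.0635 for Rasgrp2 and from 0.0557 to 0.0618 for Cyth1). Cyth1 also missed it with limma (adjusted p = 0.111 and 0.115), and both passed with DESeq2 and with the replicate block (edgeR adjusted p = 0.00361 and 0.00354). With 1 library left out, Sipa1 passed in 5 of 6 fits (not without replicate 2 labelled KO, edgeR adjusted p = 0.0502), and Rasgrp2 and Cyth1 in 1 each, that without replicate 2 labelled WT (edgeR adjusted p up to 0.204 and 0.205 in the rest). Fyb, an adaptor that couples the T cell receptor to integrins, was at 286, 108 and 189 CPM against 70.7, 45.3 and 54.8 CPM. It missed the threshold in the main test (edgeR adjusted p = 0.0531, log2 fold change -1.77 ± 0.39). Fyb passed with the replicate block (edgeR adjusted p = 0.000487), with DESeq2 (adjusted p = 0.000393) and without replicate 2 labelled WT (-2.05, edgeR adjusted p = 0.0103). The block called 5 of the 18 higher and 2 lower.

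Of 21 genes that tie integrins to actin, 4 rose, 1 fell and 16 did not pass, with a median of -0.06. Parvg, the parvin of blood cells, rose from 130.0 ± 3.25 to 184 ± 12.3 CPM (SD, n = 3, edgeR adjusted p = 0.00916). Coro1a, an actin regulator of leukocytes, rose by 0.58 ± 0.11 on the log2 scale (edgeR adjusted p = 0.0172). Vcl, which encodes vinculin, rose by 0.86 ± 0.16 (edgeR adjusted p = 0.0208), and Zyx, which encodes zyxin of focal adhesions, fell by 0.85 on the same scale (edgeR adjusted p = 0.0243). The list therefore holds changes in both directions, and the fourth rise, that of Vasp, was 0.32 ± 0.08 (edgeR adjusted p = 0.0411). Leaving out replicate 1 or 2 labelled KO ended the calls of Parvg, Coro1a, Vcl and Zyx (edgeR adjusted p up to 0.0600, 0.0986, 0.0625 and 0.103), as did replicate 3 labelled KO for Vcl and Zyx and replicate 3 labelled WT for Coro1a. Vasp passed in 1 of 6 such fits, that without replicate 2 labelled WT (edgeR adjusted p up to 0.155 in the rest), and not with no filter (edgeR adjusted p = 0.0581) or limma (adjusted p = 0.0967 and 0.0982). With the replicate block 6 of the 21 were called higher and 6 lower.

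Among 8 tested genes for integrin ligands, Spp1, which encodes osteopontin, fell from 5.79 ± 2.96 to 0.692 ± 0.168 CPM (SD, n = 3, log2 fold change -3.05 ± 0.54, edgeR adjusted p = 0.0147) and 7 did not pass. Without replicate 1 or 2 labelled KO the call of Spp1 was lost (edgeR adjusted p up to 0.0797). Vcam1, the ligand of alpha 4 beta 1, was at 271, 141 and 614 CPM against 160, 86.1 and 224 CPM, with overlapping groups (log2 fold change -1.13 ± 0.66, edgeR adjusted p = 0.340, and 0.00962 with the replicate block). Replicate 3 was the highest and replicate 2 the lowest in both groups. Icam2, another ligand of LFA-1, had a log2 fold change of 0.52 ± 0.14 (edgeR adjusted p = 0.0580, and 0.0107 with the replicate block). The block called 1 of the 8 higher and 2 lower.

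Of 11 tested partners of CD44, Cd74, the invariant chain that also acts with CD44 as a receptor for the cytokine MIF, rose from 3335 ± 509 to 5486 ± 276 CPM (SD, n = 3, log2 fold change 0.72 ± 0.12, edgeR adjusted p = 0.0111), and 10 did not pass. Cd74 and Cd44 moved in opposite directions in these libraries. The call of Cd74 was lost without replicate 3 labelled WT or replicate 1 or 2 labelled KO (edgeR adjusted p up to 0.0786). Msn, which encodes moesin and links CD44 to actin, was at 1390 ± 27.2 and 1712 ± 96.3 CPM (SD, n = 3, edgeR adjusted p = 0.0546, and 0.0284 with the replicate block). The protease gene Mmp14, whose product sheds CD44, had a log2 fold change of -1.68 ± 0.52 (edgeR adjusted p = 0.102, and 0.0142 with the replicate block). The block called 2 of the 11 higher and 1 lower.

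Of 11 tested genes for selectins and the enzymes and carriers of their ligands, 3 fell and 8 did not pass, with a median of -0.65. The fucosyltransferase genes Fut7 and Fut4, which finish the sugar that selectins bind, fell by 2.13 and 1.09 on the log2 scale (edgeR adjusted p = 0.0156 and 0.0492). Fut7 was at 4.14, 3.48 and 5.09 CPM in the libraries labelled WT and at 1.08, 0.932 and 0.871 CPM in those labelled KO. Gcnt1, the branching enzyme of the same sugars, fell by 0.57 (edgeR adjusted p = 0.0356). With 1 library left out, Fut7 passed in 3 of 6 fits (not without replicate 3 labelled WT or replicate 1 or 2 labelled KO), Gcnt1 in 2 (without replicate 1 or 2 labelled WT) and Fut4 in 1 (without replicate 2 labelled WT), with edgeR adjusted p up to 0.0826, 0.145 and 0.169 in the rest. Selplg, which encodes the carrier PSGL-1, had a log2 fold change of -0.65 ± 0.18 (edgeR adjusted p = 0.0694, and 0.00699 with the replicate block). Fut4 was not called with a minimum mean of 1 CPM (edgeR adjusted p = 0.0525) or with limma (adjusted p = 0.0577 and 0.0568), and the block called 1 of the 11 higher and 6 lower.

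**Figure D4:**
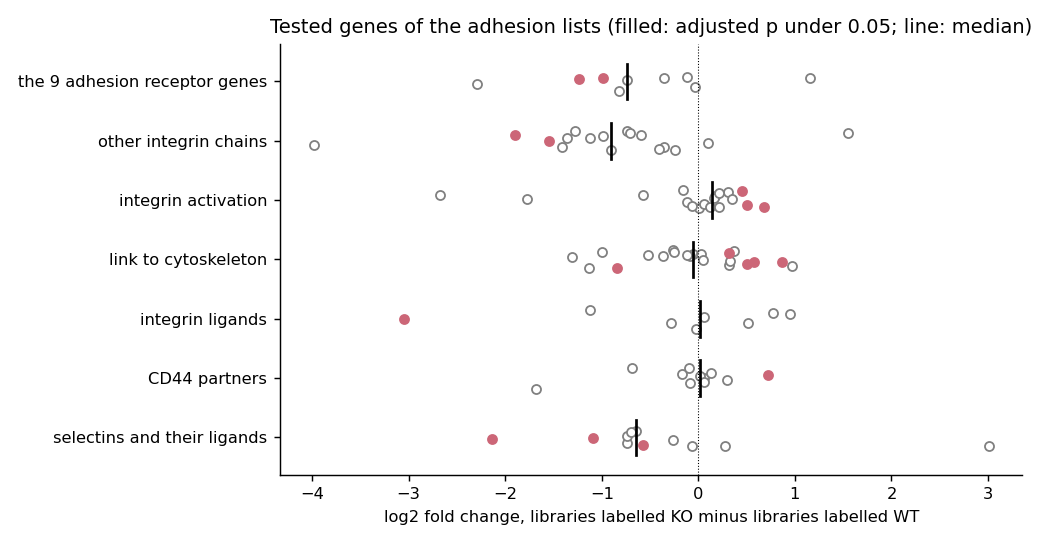
Log2 fold change (horizontal axis, libraries labelled KO minus libraries labelled WT) of each tested gene in the 9 adhesion receptor genes and 6 lists of related genes, with filled points for genes at an edgeR adjusted p under 0.05 and a line at each list's median. Medians of the 9 genes, of the other integrin chains and of the selectin list lie below 0, at -0.74, -0.90 and -0.65, and those of the other 4 lists lie between -0.06 and 0.14.

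Markers of cells that carry these receptors at high levels moved with the genes that were lower in the libraries labelled KO. All 14 neutrophil markers were lower in every library labelled KO than in any labelled WT, as were 15.9% of all tested genes, and their median log2 fold change was -4.08. Of them 2 passed, Elane and Mpo, which encode granule proteins of immature neutrophils (log2 fold change -2.11 ± 0.29 and -2.27 ± 0.45, edgeR adjusted p = 0.00734 and 0.0420). Elane was not called without replicate 2 labelled KO (edgeR adjusted p = 0.0556), and Mpo was called in 1 of 6 fits that left out a library, that without replicate 1 labelled KO (edgeR adjusted p up to 0.141 in the rest) and not with no filter (edgeR adjusted p = 0.0798). With the replicate block 7 of the 14 were called. Ly6g, a defining neutrophil marker, was at 27.3, 3.75 and 0.991 CPM in the libraries labelled WT and at 0.135, 0.666 and 0 CPM in those labelled KO, where a count of 0 allows up to 0.201 CPM. The library labelled WT replicate 1, the highest for Ly6g, was also the highest for each of the 9 adhesion receptor genes but Itgb7. Between the other 2 libraries labelled WT, replicate 2 was the higher for Ly6g, Itga4, Itgal and Itgb7. Replicate 3 was the higher for Itgb1, Itgb2, Itgam, Itgax, Cd44 and Icam1.

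Of 14 monocyte and macrophage markers, 4 fell (Cd14, Ccr2, Fcgr1 and Ly6c2) and 10 did not pass, with a median of -1.43, none of them at 0 in any library. Of 7 tested dendritic cell markers, Flt3 fell by 1.17 on the log2 scale (edgeR adjusted p = 0.00527) and 6 did not pass, with a median of -1.05. Their summed level was 91.9 to 132 CPM in the libraries labelled WT and 39.8 to 60.6 CPM in those labelled KO, and Xcr1 was at 0 in 1 library of each group. T cell markers had a median of -2.86 over 11 tested, of which Cd8b1 fell, and summed to 129 to 625 CPM against 52.0 to 94.2. NK cell markers summed to 11 to 20.4 CPM against 5.23 to 6.40, with Klrk1 fallen among 4 tested. Cd14 and Flt3 passed in all 6 fits that left out 1 library. Ccr2 passed in 2 (without replicate 2 labelled WT or replicate 1 labelled KO), Fcgr1 in 1 (without replicate 2 labelled WT), Ly6c2 in 1 (without replicate 1 labelled KO), Cd8b1 in 3 (without any 1 labelled WT) and Klrk1 in 3 (without replicate 2 or 3 labelled WT or replicate 1 labelled KO). With no filter Ccr2, Fcgr1 and Ly6c2 were not called (edgeR adjusted p = 0.0627, 0.0516 and 0.0854), nor was Cd8b1 with limma on log2(TPM + 1) (adjusted p = 0.0907). The replicate block called 13 of 14 monocyte and macrophage, 4 of 7 dendritic cell, 5 of 11 T cell and 2 of 4 NK cell markers lower. It called 12.8% of all tested genes lower. The part of these cells in the levels of Itgam, Itgax, Itgb2, Itgb1, Cd44 and Icam1 was not tested.

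B cell markers were higher in the libraries labelled KO, 6 of 10 passing, beside 4.55% of all tested genes called higher. Among the 6 were Ms4a1, which encodes CD20, with a log2 fold change of 1.24 ± 0.16 (edgeR adjusted p = 0.00396), and Spib and Fcmr. B-1 cells and age-associated B cells are subsets known to carry CD11b or CD11c. Of 6 tested B-1 cell markers, Zbtb32 and Ptpn22 rose and 4 did not pass. Zbtb32 lies on chromosome 7, as does Ffar1, and any part of that in its rise was not tested. The summed level of the 6 markers was 215 to 325 CPM in the libraries labelled WT and 385 to 415 CPM in those labelled KO, without overlap. The part of either subset in the levels of Itgam and Itgax was not tested. Of 4 markers of age-associated B cells, Fcrl5 rose and 3 did not pass, their sums overlapping at 142 to 198 and 119 to 151 CPM, and the replicate block also called Zeb2, a gene that myeloid cells share, lower (edgeR adjusted p = 0.0225, against 0.0633 without it). Tbx21, the defining factor of that subset, was at 0.962 ± 0.174 and 1.47 ± 0.64 CPM (SD, n = 3, log2 fold change 0.61 ± 0.54, edgeR adjusted p = 0.505). Of 8 marginal zone markers, Cr2 and Dtx1 rose, Asb2 fell and 5 did not pass, and the block called 2 higher and 3 lower. The calls of Ms4a1, Spib, Fcmr, Zbtb32, Ptpn22, Cr2 and Dtx1 held in all 6 fits that left out 1 library, while those of Fcrl5 and Asb2 were lost without replicate 2 labelled KO (edgeR adjusted p = 0.0657 and 0.0762), and that of Fcrl5 also without replicate 1 labelled KO and with limma on log2(TPM + 0.1) (adjusted p = 0.0507).

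Plasma cell markers gave 1 rise, Sdc1, 1 fall, Prdm1, and 4 not passing among 6 tested. The 4 tested platelet and 7 tested erythroid markers did not pass, and the sums of both overlapped between groups. Of 8 tested endothelial and stromal markers, Pecam1, also carried by leukocytes, rose and 7 did not pass. Sdc1 and Prdm1 passed in all 6 fits that left out 1 library and Pecam1 in 2 (without replicate 2 labelled WT or replicate 3 labelled KO), and Pecam1 did not pass with limma (adjusted p = 0.0625 and 0.0654). The replicate block called 2 plasma cell markers higher and 1 lower, 1 platelet marker lower, no erythroid marker, and 1 endothelial or stromal marker higher and 2 lower.

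**Figure D5:**
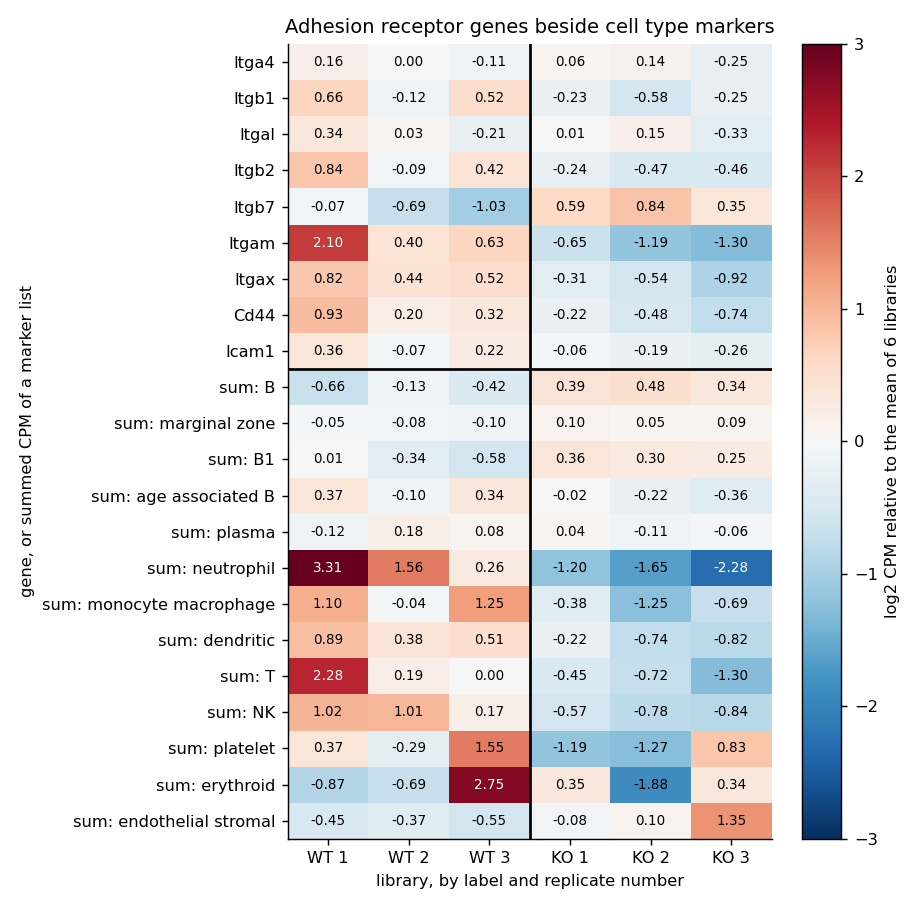
Log2 CPM of the 9 adhesion receptor genes (above the line) and of the summed markers of each cell type (below it) in each of 6 libraries, relative to the mean over the 6, with colours from -3 (blue) to 3 (red) and the value in each cell. The library labelled WT replicate 1 is at 3.31 for neutrophil markers and 2.10 for Itgam, and the libraries labelled KO are below 0 for both, whereas Itga4 and Itgal stay between -0.33 and 0.34 in all 6.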

How the data were processed

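RNA was sequenced from 6 libraries of enriched splenic B lymphocytes. The labels' protocols give capture on oligo(dT), priming with random hexamers and paired reads on a BGISEQ-500; no step that keeps strand is stated, so overlapping genes on opposite strands cannot be told apart. HISAT2 2.0.4, Bowtie2 2.2.5, RSEM 1.3.1 and the mm10 build are listed in the submitters' processing notes, without roles. The authors deposited estimated counts (expected counts) per gene and per transcript, unscaled, per the file headers; 5.87% of gene values were not whole. Per the same file headers, the authors' TPM is scaled to length and a fixed sum, and their FPKM to length and depth. A further 12 columns of per-library values were not used.

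Estimated counts were rounded, filtered (filterByExpr by group, leaving 12234 genes and 31150 transcripts), scaled with TMM and tested on the label with the robust quasi-likelihood F-test of edgeR 4.0.16 in R 4.3.3, adjusted by Benjamini-Hochberg over the whole table at 0.05. SE was derived from the F statistic. CPM use TMM-scaled totals. Ratios of TPM were compared by exact two-sided permutation tests. Alternatives used DESeq2 1.42.0, limma 3.58.1 on log2(TPM + 0.1) or log2(TPM + 1), other scalings and filters, a replicate block and fits without libraries. Of these procedures, only the main edgeR fit was run on simulated counts. They were drawn with the same dispersion for every gene, so they do not cover the uneven spread of these libraries. The floor of 3 counts (about 0.2 CPM) covers counting error only, since reads lacking molecular identifiers are not independent.

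The labels number replicates 1 to 3 in both groups but name no separate animals. The p-values thus reflect only how libraries spread, which may be technical. Deviations from group means correlated between same-numbered libraries (r = 0.156, 0.407 and 0.197 across genes; other pairs -0.243 to 0.012), a hint of pairing that comes from the data; the blocked value is printed beside each tested value whose call it changes.

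The 9 genes and all lists were chosen with earlier results of these data known. Named besides them were up to 4 genes of smallest p per list, the 3 genes most alike to each of the 9, neighbours on chromosome 7, and some genes chosen after their values were seen, such as Vasp, Ly6g, Tbx21 and Zeb2. A few genes taken by this rule are not reported here. Positions are from RefSeq gene entries on GRCm38, the build also called mm10. Strands and exon numbers are from GENCODE, which 15 of 27 transcripts matched.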

Additional observations from a re-analysis of the deposited data

How the results depend on the processing

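Counts of calls moved with the test and the libraries. Higher and lower in the libraries labelled KO, the main edgeR test called 557 and 589 genes, DESeq2 855 and 1391, the replicate block 974 and 1561, and the fit without the libraries labelled WT replicate 1 and KO replicate 3 together 338 and 229; leaving out 1 library gave 169 to 830 and 95 to 1200. The share of calls that were higher was 48.6%, and 38.1% with DESeq2, 38.4% with the block, 64.0% without the library labelled KO replicate 2, 61.8% without KO replicate 3 and 59.6% without WT replicate 1 and KO replicate 3. Of the 9 adhesion receptor genes, 0 were called higher and 2 lower; DESeq2 called 1 and 5 (18.4% of all tested genes), the block 1 and 6, the fit without WT replicate 1 and KO replicate 3 called 1 higher, no filter gave 1 lower, and leaving out 1 library gave 0 to 1 and 0 to 5. In the 6 lists of related genes, 8 were higher and 7 lower; DESeq2 gave 14 and 20, the block 15 and 26, the fit without both libraries 3 and 3, no filter 5 higher, and leaving out 1 library 0 to 12 and 1 to 20. Of all transcripts, 37 were higher and 11 lower; no filter gave 73 and 36, DESeq2 1245 and 1387, limma on log2(TPM + 1) 76 and 43, limma on log2(TPM + 0.1) 23 lower, the block and the fit without both libraries 0 each way, and leaving out 1 library 1 to 4 and 0 to 1. Of transcripts of the 9 genes, DESeq2 called 2 higher and 6 lower, against 0 each way in the main edgeR test.

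The log2 fold change of Itga4 turned positive without WT replicate 1 (0.0459), KO replicate 3 (0.0819) or both (0.1504), and that of Itgal likewise (0.0464, 0.0179 and 0.1673); without 1 library they ran from -0.118 to 0.0819 and from -0.2302 to 0.0464. Of 51 other genes named with a value, 36 were called, 12 of them in every fit without 1 library, and none of the 36 changed sign; Itga6, not called, turned positive without WT replicate 1 (0.1717) and without both (0.1729), from -0.4408 to 0.1717 without 1 library. The other 7 genes kept their sign under all 15 alternatives; Itgax passed in 13 of them and Cd44 in 10. The 6 chain ratios kept their sign with FPKM, with counts and without each library. The causes of these shifts were not tested. Scaling by RLE size factors or library totals changed no call of the 9 genes, but ended those of Rasgrp2 and Cyth1 and gave one for Zfp768, and library totals one for Zeb2. Among the 9 genes, depth limits Itgax most, at 73 to 271 counts per library. Spp1 and Fut7, named besides the 9, had lower mean CPM than Itgax in each group. The number of libraries limits every test. The paired design rests on replicate numbers, and calls gained with the block depend on it.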

Other observations

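Some integrin chains that are no members of the 9 had levels that set the libraries apart in other ways. Itga6, the alpha chain of laminin receptors, was at 81.5, 43.9 and 37.7 CPM in the libraries labelled WT replicates 1, 2 and 3 and at 43.2, 48.9 and 45.6 CPM in those labelled KO (log2 fold change -0.24 ± 0.29, edgeR adjusted p = 0.636), the groups overlapping. Itgav, the alpha chain that pairs with Itgb3, was at 152, 102 and 154 CPM against 105, 93.5 and 109 CPM (edgeR adjusted p = 0.147, and 0.0216 with the replicate block). Its highest libraries were those labelled WT replicates 1 and 3, as for Itgb1 and Itga5. Itgae, which encodes the CD103 chain that pairs with beta 7 on T cells and dendritic cells of epithelia, was at 9.39, 1.77 and 0.198 CPM against 0.472, 0.399 and 0.335 CPM and did not pass the filter on low counts. It was high in the library labelled WT replicate 1, where Itgb7 was also the highest of its group. These 3 genes were chosen after their values were seen.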
